A study of Mus musculus with 4 samples.

Results

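Insulin signalling and glucose uptake in dWAT, the fat layer beneath the dermis around the lower ends of hair follicles, were followed here through 8 genes of 22913 listed. They were taken by name: the insulin receptor Insr, the adaptors Irs1 and Irs2, the phosphoinositide 3-kinase subunit Pik3r1, the kinase Akt2, the transcription factor Foxo1 and the glucose transporters Slc2a4 and Slc2a1. They were named by their roles, with earlier results of these data known, and all 8 had an FPKM above 1 in each library. FPKM in general divides the fragments of a gene by its length and by the library's mapped total. Which lengths and totals the authors used is not given in the sources used here. If they were the listed lengths and the fragments of the listed genes, FPKM times length would sum to 100% of a fixed total in each library. That sum was 112% in YTD, 103% in OTD, 64.1% in YAD and 72.3% in OAD. The listed genes thus do not sum to the same base across the libraries. The gap was widest between the phases but also lay between the ages, so it bears on each ratio between libraries below.

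RNA sequencing gave 1 library for each of 4 groups of C57BL/6 mice. These were OTD (old mice, telogen, dWAT), YTD (young, telogen), OAD (old, anagen) and YAD (young, anagen). In the series design old mice are 18 months and young mice 2 months of age, whereas the age field of the sample labels gives 18 months for YTD and 2 months for OAD. Titles and series design were followed here. Anagen was induced by depilation, and the mice of YTD and OTD were in telogen, the resting phase of the hair cycle. The methods describe tissue of several mice per group, scraped off below the follicles once subcutaneous fat and the skin muscle had been cut away. Sex, feeding state and time of day are not given in the sources used here. With 1 library per group there is no spread between replicates and no p-value. Each comparison sets 1 library against another.

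In an adipocyte, insulin binds INSR, which phosphorylates the IRS adaptors. These recruit phosphoinositide 3-kinase, whose regulatory subunit p85 alpha is the main product of Pik3r1, and its lipid product activates AKT. AKT2 drives vesicles that hold GLUT4, the product of Slc2a4, to the cell surface and keeps FOXO1 out of the nucleus. GLUT1, the product of Slc2a1, carries glucose without the need for insulin and is widely expressed, whereas GLUT4 is known from fat and striated muscle.

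The adaptors are shown first by their promoters, because Irs1 and Irs2 moved in opposite directions with age in telogen. The sequences are RefSeq's on GRCm38.p6, the 250 bases before the RefSeq start, on the minus strand at chr1:82291440-82291689 for Irs1 and at chr8:11008930-11009179 for Irs2. Capitals mark CACGTG, an E-box, and TGTTTTG, the core of an insulin response element, searched on both strands. The first match of each in Irs1 shares the bases TG.
Irs1: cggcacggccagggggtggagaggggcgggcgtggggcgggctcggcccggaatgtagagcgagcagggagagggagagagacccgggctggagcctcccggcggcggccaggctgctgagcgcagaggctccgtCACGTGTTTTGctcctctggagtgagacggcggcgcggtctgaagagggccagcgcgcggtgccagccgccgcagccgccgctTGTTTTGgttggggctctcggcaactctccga
Irs2: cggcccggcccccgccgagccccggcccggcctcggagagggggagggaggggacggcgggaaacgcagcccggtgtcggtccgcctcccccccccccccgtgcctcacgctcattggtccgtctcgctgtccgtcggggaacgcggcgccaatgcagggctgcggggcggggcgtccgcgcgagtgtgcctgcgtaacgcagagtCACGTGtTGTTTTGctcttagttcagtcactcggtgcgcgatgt
Both windows held both motifs. The E-box began 115 bases before the start in Irs1 and 44 bases before it in Irs2. TGTTTTG began 111 and 32 bases before the start of Irs1, and 37 bases before that of Irs2. Of 32851 windows of this length, 6.02% held CACGTG, 5.56% held TGTTTTG and 0.295% held both. Of the 8 genes, 6 had a window in the table (Insr and Slc2a4 had none), and neither motif was found in those of Pik3r1, Akt2, Foxo1 and Slc2a1. The forkhead motif TGTTTAC, held by 3.17% of all windows, was in none of the 6. The RefSeq start of Irs2 lies 471 bases upstream of the start the authors list for the gene, and that of Irs1 lies 23 bases upstream. These matches describe letters in a window and show no binding. The genes shown and the motifs were chosen, not drawn at random, so the shares of all windows are background and no test. Motifs that both genes hold do not set them apart.

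Low FPKM values fall on multiples of what 1 fragment is worth, and this step put the depth at roughly 18600000 to 22600000 fragments per library. At this depth the 8 genes stood for about 137 to 6381 fragments each, far above the floor of 3 fragments. Intervals on ratios below are 95% exact conditional intervals from these estimated fragments and cover counting error only, not the spread between mice. All 12 adipocyte markers were present in each library, with Adipoq, the adiponectin gene, at an FPKM of 76.5 to 427. Other tissues were present too, so presence alone does not check the tissue label. The summed FPKM of the 12 adipocyte markers was 6490 in YTD, 7990 in OTD, 1900 in YAD and 2720 in OAD. That of the 16 skeletal muscle markers was 105000, 67300, 12200 and 16400 in the same order. The 16 skeletal muscle markers held 1.76% to 8.46% of the summed FPKM, and hair shaft and keratin-associated protein genes held 0.0555% and 0.101% in OTD and YTD and 14.6% and 13.0% in OAD and YAD. In such bulk tissue, fewer cells of a type and less RNA per cell cannot be told apart.

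**Figure D1:**
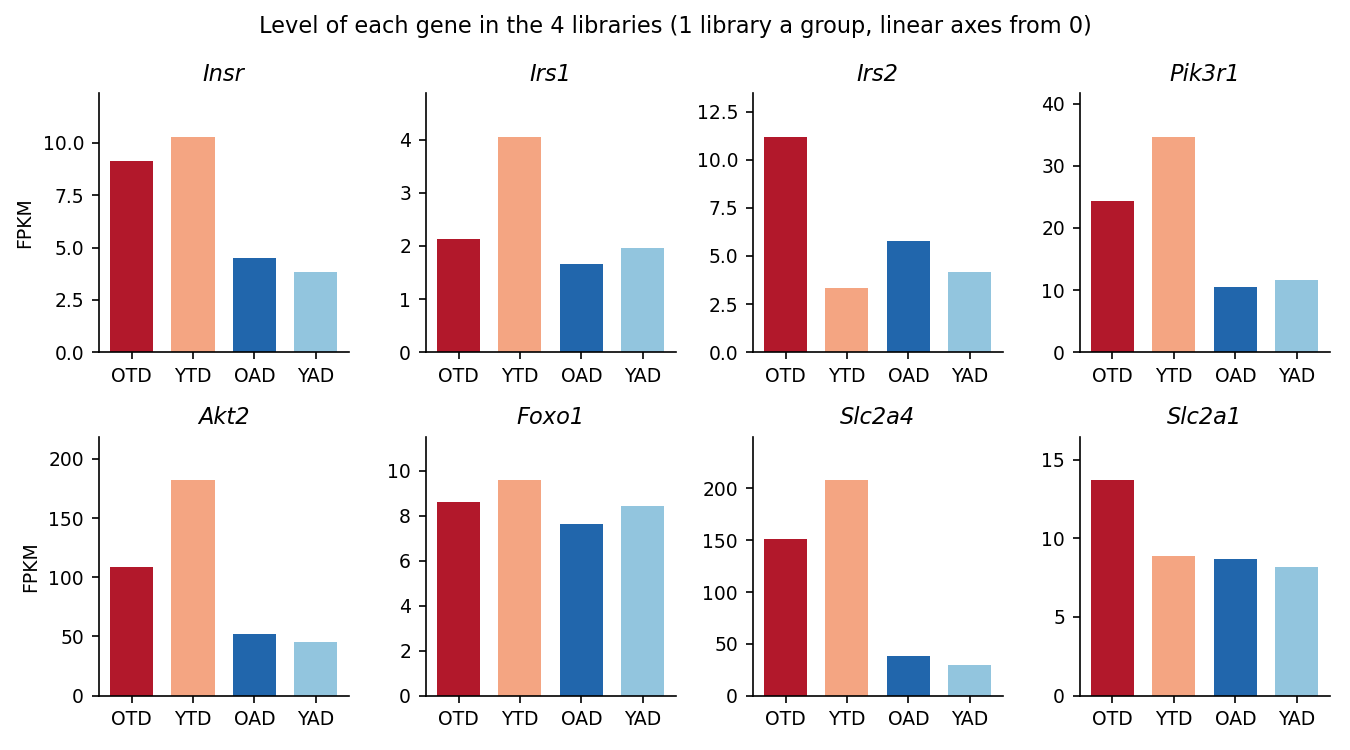
FPKM of the 8 genes in OTD, YTD, OAD and YAD, 1 bar per library on linear axes from 0. Slc2a4 spanned 29.6 to 208 and Akt2 45.1 to 182, both highest in YTD, while Irs2 was highest in OTD at 11.2.

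The order of the levels from highest to lowest began with Slc2a4, Akt2 and Pik3r1 in both telogen libraries and with Akt2, Slc2a4 and Pik3r1 in both anagen libraries. Irs1 was the lowest of the 8 in OTD, OAD and YAD, and Irs2 was the lowest in YTD. Since FPKM is per length, pairs of genes can be set against each other within a library, where scaling between libraries plays no part. Such a ratio still rests on the length used for each gene, which is not known. The FPKM of Slc2a4 was 11.0 times that of Slc2a1 in OTD, 23.3 times in YTD, 4.37 times in OAD and 3.63 times in YAD. The insulin-responsive transporter was thus above the basal transporter in each library, by most in YTD. The FPKM of Irs2 was 5.26 times that of Irs1 in OTD, 3.46 times in OAD and 2.11 times in YAD, but 0.817 times in YTD.

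The first question was how old and young dWAT differed in telogen. Irs2 was the 1 gene of the 8 counted as changed, that is, with a difference of at least 1 in log2(FPKM + 1), and it was higher in OTD. Among the 12982 genes that reached an FPKM of 1 in either library, 4.78% were counted as changed, 2.21% as higher and 2.57% as lower. Of the other members, Slc2a1 was higher and the remaining 6 were lower in OTD. The median log2 change of the 8 was -0.31, beside -0.06 for these 12982 genes.

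Irs2 (ENSMUSG00000038894, GRCm38 chromosome 8 from 10986980 to 11008458), the adaptor known for its role in liver and beta cells as well as fat, had an FPKM of 3.32 in YTD, 11.2 in OTD, 4.16 in YAD and 5.79 in OAD. It stood highest in the library of old telogen dWAT, and the other 3 libraries lay between 3.32 and 5.79. In telogen its log2 change was 1.5, a 3.38-fold higher FPKM in OTD with an interval from 2.94 to 3.90. This change ranked 71 from the top among the 12982 genes. Irs1 (ENSMUSG00000055980, chromosome 1, bases 82233101 to 82291416), the adaptor most often tied to insulin action in fat and muscle, went the other way. Its FPKM was 4.06 in YTD, 2.13 in OTD, 1.97 in YAD and 1.67 in OAD, so YTD stood above the other 3. The log2 change in telogen was -0.69, a ratio of 0.525 with an interval from 0.427 to 0.641. The antisense gene Gm9747 lies within the listed span of Irs1, with an FPKM of 20.3 in YTD, 11.5 in OTD, 9.36 in YAD and 8.78 in OAD. Whether the counting used strand is not stated, so reads of this pair cannot be told apart.

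The receptor gene Insr (ENSMUSG00000005534, chromosome 8, bases 3150922 to 3279617) had an FPKM of 10.3 in YTD, 9.12 in OTD, 3.83 in YAD and 4.49 in OAD. It was higher in both telogen libraries than in both anagen libraries, and the ages lay close together within a phase. The log2 change with age was -0.16 in telogen, a ratio of 0.887 with an interval from 0.802 to 0.982. This direction turned to 0.04 when the libraries were scaled to an equal sum outside the mitochondrial genome.

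Pik3r1 (ENSMUSG00000041417, chromosome 13, bases 101680563 to 101768217) had an FPKM of 34.7 in YTD, 24.3 in OTD, 11.6 in YAD and 10.5 in OAD. Akt2 (ENSMUSG00000004056, chromosome 7, bases 27591552 to 27640826), the AKT form known for glucose uptake, had 182 in YTD, 109 in OTD, 45.1 in YAD and 52.0 in OAD. For both genes YTD was highest, OTD came next and the anagen libraries were lowest. The log2 changes with age in telogen were -0.49 for Pik3r1, with a ratio of 0.702 and an interval from 0.647 to 0.761, and -0.73 for Akt2. The ratio for Akt2 was 0.599, with an interval from 0.573 to 0.627, and 6.99% of the 12982 genes had a lower change.

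Foxo1 (ENSMUSG00000044167, chromosome 3, bases 52268336 to 52353221), the forkhead factor that insulin holds in check, had the narrowest span of the 8 as deposited. It had an FPKM of 9.58 in YTD, 8.59 in OTD, 8.41 in YAD and 7.65 in OAD, a 1.25-fold span over the libraries. In neither age comparison nor in either hair cycle comparison did the counting interval of its ratio exclude 1. Its age ratio in telogen was 0.897, with an interval from 0.770 to 1.04. In TPM its span was 1.76-fold, wider than the 1.5-fold of Insr and the 1.65-fold of Slc2a1.

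Of the transporters, Slc2a4 (ENSMUSG00000018566, chromosome 11, bases 69942543 to 69948188) had an FPKM of 208 in YTD, 151 in OTD, 29.6 in YAD and 38.0 in OAD, the widest span of the 8 at 7.01-fold. Slc2a1 (ENSMUSG00000028645, chromosome 4, bases 119108711 to 119137330) had 8.90 in YTD, 13.7 in OTD, 8.15 in YAD and 8.68 in OAD, so OTD was highest as deposited. In TPM, which scales each library to the same sum, YTD was instead the lowest at 7.14 and the other 3 lay between 10.7 and 11.8. In telogen the log2 change was -0.46 for Slc2a4, with a ratio of 0.727 and an interval from 0.699 to 0.755. For Slc2a1 it was 0.57, with a ratio of 1.54 and an interval from 1.31 to 1.81. The transporters thus moved apart with age in telogen, and neither was counted as changed.

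Markers of cell types also differed between OTD and YTD, in both directions. All 16 muscle markers were lower in OTD, at a median log2 change of -0.63 and a ratio of summed FPKM of 0.639. Of 12 adipocyte markers, 9 were higher, with a median of 0.31 and a ratio of 1.23. The 11 endothelial markers were all higher, with a median of 0.60, and 10 of 11 macrophage markers were higher, with a median of 0.33. All 14 hair shaft and matrix markers found were lower, with a median of -0.83 and 5 counted as changed. Of 12 keratinocyte markers, 9 were lower, with a median of -0.36 and with Krt15 counted as changed. Fibroblast markers were higher for 8 of 10, with a median of 0.40 and with Dcn and Lum counted as changed, and all 7 Schwann cell markers were higher, at a median of 0.46. Their part in the changes of the 8 genes was not tested.

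The next question was the age difference in anagen. None of the 8 genes was counted as changed between OAD and YAD, where 1.59% of 13068 genes with an FPKM of at least 1 were, 0.979% as higher and 0.612% as lower. The median log2 change was 0.13, with 5 genes higher and 3 lower, beside 0.00 for the 13068 genes. The changes ran from -0.15 for Irs1 to 0.39 for Irs2. Irs2 was again higher in the old library, by 1.39-fold with an interval from 1.21 to 1.59. Slc2a4 was 1.28-fold higher, with an interval from 1.18 to 1.39, and Akt2 was 1.15-fold higher, with an interval from 1.07 to 1.24. Both had been lower in the old library in telogen. Insr was 1.17-fold higher, with an interval from 1.01 to 1.35. For Irs1, Pik3r1, Foxo1 and Slc2a1 the interval included 1. In TPM Akt2 changed by -0.03, Slc2a4 by 0.13 and Insr by 0.00, so the direction for Akt2 turned with the scaling. For 13 of 16 muscle markers OAD was above YAD, at a median of 0.37, and all 12 adipocyte markers were higher, at a median of 0.31. All 11 endothelial markers were higher too, at a median of 0.23. Keratinocyte markers were higher for 10 of 12, at a median of 0.35, with Krt14 and Krt6a counted as higher and Lor as lower. Of the hair shaft and matrix markers, 8 were higher and 6 lower, at a median of 0.35 and with Krt72 counted as higher. All 10 fibroblast markers were lower, at a median of -0.62 and with Col1a1, Col1a2 and Col3a1 counted as changed, and all 8 melanocyte markers were lower, at a median of -0.81. Their part was not tested.

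**Figure D2:**
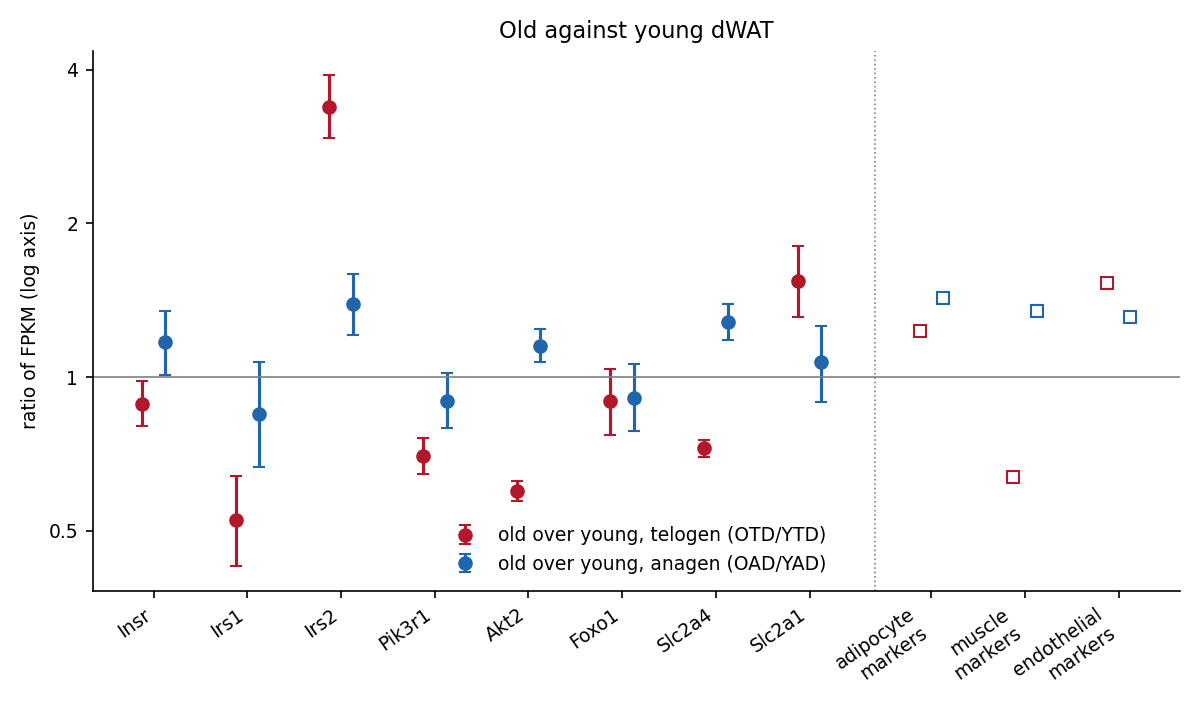
Ratio of FPKM, old over young, for the 8 genes in telogen (red) and anagen (blue) on a log axis, with 95% counting intervals, and the ratio of summed FPKM of 3 marker lists as open squares. Irs2 stands highest in telogen at 3.38, Irs1 lowest at 0.525, and the muscle markers lie at 0.639 in telogen and 1.35 in anagen.

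The age changes of the 8 genes were larger in size in telogen than in anagen for 7 as deposited, and for Insr they were -0.16 and 0.18. This count was 5 with an equal sum outside the mitochondrial genome and 6 with the median of ratios, and for Foxo1 it rested on -0.14 against -0.12. The difference between the age change in telogen and that in anagen was 1.1 for Irs2, -0.93 for Akt2, -0.81 for Slc2a4, -0.54 for Irs1 and 0.49 for Slc2a1, on the log2 scale. With 1 library per group this difference was not tested.

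The hair cycle was compared at each age with the same 4 libraries that serve the age comparisons, so these comparisons are not independent of each other. In young mice 4 of the 8 genes were counted as lower in YAD than YTD, Slc2a4, Akt2, Pik3r1 and Insr, and none as higher. Anagen dWAT differed widely from telogen dWAT, with 42.0% of 13738 genes with an FPKM of at least 1 counted as changed, 20.6% as higher and 21.4% as lower. In old mice 3 of the 8, Slc2a4, Akt2 and Pik3r1, were counted as lower in OAD than OTD, where 40.5% of 13847 genes were counted as changed, 20.6% as higher and 19.9% as lower. The median log2 change of the 8 genes was -1.0 in young and -0.86 in old mice, beside 0.03 and 0.05 for all genes with an FPKM of at least 1.

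Slc2a4 had the largest change of the 8 at both ages. It changed by -2.77 in young mice, where YTD was 7.01-fold above YAD, and by -1.96 in old mice, where OTD was 3.97-fold above OAD. Of all genes with an FPKM of at least 1, 2.07% had a lower change in young and 4.82% in old mice. Akt2 changed by -1.99 in young and -1.05 in old mice, Pik3r1 by -1.50 and -1.14, and Insr by -1.22 and -0.88. Irs1 changed by -0.77 in young and by -0.23 in old mice. Slc2a1 changed by -0.11 in young mice, with an interval of the ratio from 0.771 to 1.09, and by -0.60 in old mice, with an interval from 0.541 to 0.740. Irs2 was the 1 gene whose direction differed between the ages beyond counting error, with 0.26 in young and -0.85 in old mice.

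**Figure D3:**
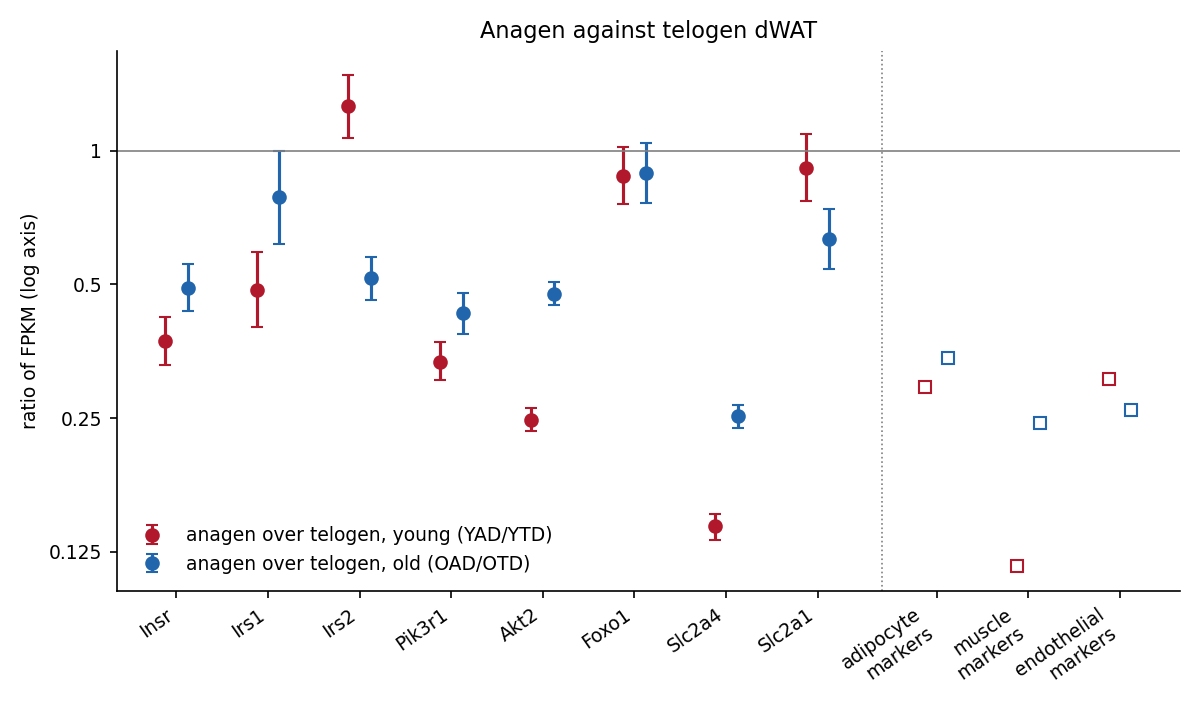
Ratio of FPKM, anagen over telogen, for the 8 genes in young (red) and old (blue) mice on a log axis, with 95% counting intervals, and the ratio of summed FPKM of 3 marker lists as open squares. Slc2a4 lies lowest of the genes at 0.143 and 0.252, between the adipocyte markers at 0.293 and 0.341 and the muscle markers at 0.116 and 0.243.

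The scaling bears on this comparison. The 13 genes of the mitochondrial genome held 52.7% and 44.7% of the summed FPKM in OTD and YTD and 18.3% and 14.4% in OAD and YAD. In TPM the median of all genes with an FPKM of at least 1 moved to 0.78 in young and 0.60 in old mice. Relative to that shift the median of the 8 genes was -1.11 in young and -0.93 in old mice, against -1.02 and -0.91 as deposited. In TPM 2 genes were counted as lower in young mice, and in old mice 1 was. There Slc2a4 changed by -1.94 and -1.35, and Akt2 by -1.16 and -0.45. The direction of Foxo1 turned to 0.60 and 0.40 in TPM, that of Slc2a1 to 0.65 in young mice and that of Irs1 to 0.17 in old mice. All 12 adipocyte markers were lower in anagen at both ages, with medians of -1.53 and -1.51, and all 16 muscle markers were lower, with medians of -3.05 and -1.99. The 11 endothelial markers were all lower too, with -1.57 and -1.85, as were the 10 fibroblast markers, with -1.31 and -2.75. Medians were -1.51 and -2.32 for macrophage, -1.10 and -2.24 for Schwann cell and -1.15 and -0.68 for red blood cell markers. The 14 hair shaft and matrix markers found were all higher, with medians of 5.60 and 6.67. Keratinocyte markers had medians of 2.65 and 3.74, and melanocyte markers 4.51 and 3.96. The part of these tissues in the changes of the 8 genes was not tested.

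Levels relative to marker genes, a measure added after the values were seen, take scaling between libraries out. Per 1000 summed FPKM of the 16 muscle markers, Slc2a4 had 1.97 in YTD, 2.24 in OTD, 2.43 in YAD and 2.32 in OAD, a 1.23-fold span where its own FPKM spanned 7.01-fold. Per 1000 summed FPKM of the 12 adipocyte markers it had 32.0, 18.9, 15.6 and 14.0 in the same order, a 2.29-fold span. Slc2a4 thus kept closer to the muscle markers than to the adipocyte markers over the 4 libraries. Akt2 spanned 2.29-fold against the muscle markers and 2.05-fold against the adipocyte markers. Insr kept closest to the adipocyte markers, with a 1.76-fold span against 3.22-fold for muscle. Irs2 spanned 11.2-fold and 4.29-fold, so it followed neither list. From which cells each transcript came was not measured.

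**Figure D4:**
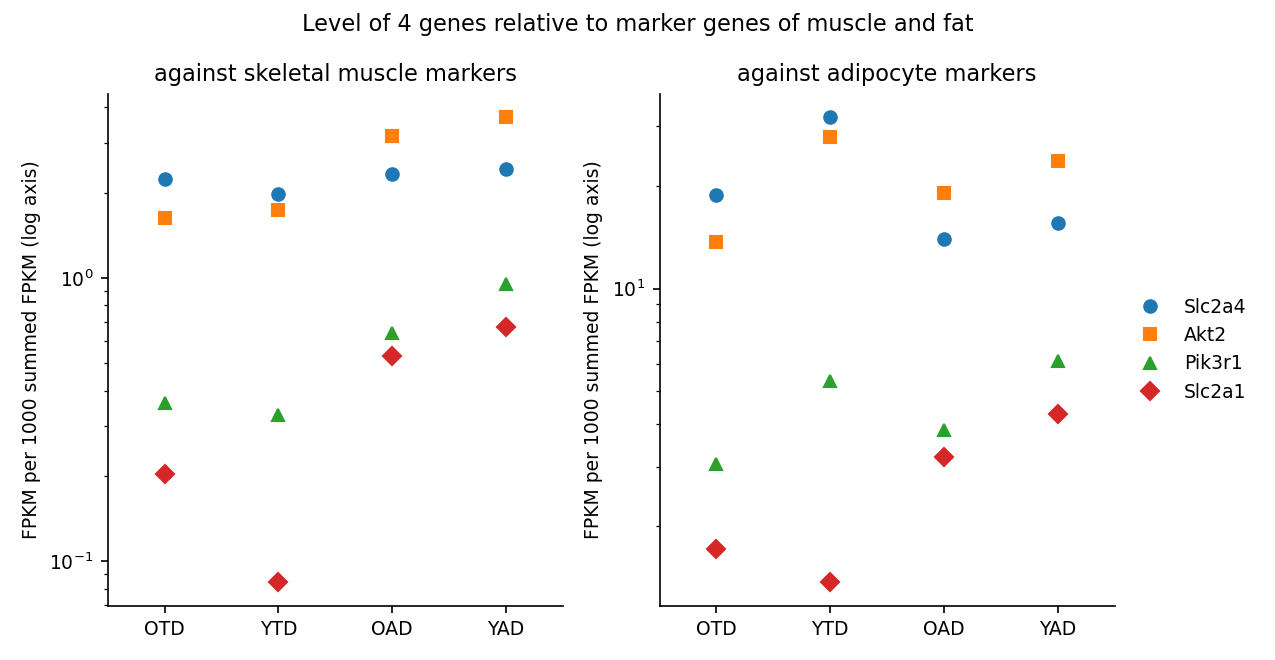
FPKM of Slc2a4, Akt2, Pik3r1 and Slc2a1 per 1000 summed FPKM of muscle markers (left) and adipocyte markers (right), log axes, 1 point per library. Slc2a4 is nearly level against muscle, from 1.97 to 2.43, and runs from 14.0 to 32.0 against the adipocyte markers.

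Genes with the most similar profile were found for the 5 members whose log2(FPKM + 1) spanned at least 1, by the Euclidean distance over the 4 libraries after centring, among 11180 genes. The smallest distance for Slc2a4 was to Slc41a3 (0.022), and the next was to Trim63 (0.11), a ubiquitin ligase of striated muscle, at the same rounded distance as a locus outside the annotation. For Irs2 the nearest was Zfp36 (0.15), an immediate early gene whose product destabilises mRNAs, with an FPKM of 30.5 in YTD, 98.2 in OTD, 40.4 in YAD and 48.6 in OAD. Il18 (0.25) and Casp1 (0.27), of the inflammasome pathway, followed. The nearest for Akt2 were Cisd1 (0.046), Ndufc1 (0.049) and Scx (0.053), for Insr Mcee (0.022), Itgb1bp1 (0.043) and Gphn (0.053), and for Pik3r1 Phykpl (0.048), Aplnr (0.055) and Lnpk (0.059). With 4 libraries many genes have like profiles, and such a match is a description.

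The wider pathway was read from 5 lists grouped by role, over genes above 0 in either library. Among all such genes, 3.60% were counted as changed with age in telogen (1.67% higher and 1.93% lower) and 1.18% in anagen (0.727% and 0.454%). With the hair cycle 32.7% were counted as changed in young mice (16.1% higher and 16.7% lower) and 31.7% in old mice (16.1% and 15.6%). Most listed genes reached an FPKM of 1, and among all genes that did, the shares were larger. They were 42.0% in young and 40.5% in old mice, and 4.78% with age in telogen and 1.59% in anagen. Cbl, Foxo6, Pik3r2, Enpp1, Ptpn1, Trib1 and Sesn3 are named below after their values were seen, to complete short counts. Of 31 expressed genes that relay the signal, in telogen 1 was counted as lower in OTD and none as higher, with a median log2 change of -0.14. The one was Foxo6, a forkhead factor, whose FPKM was 8.80 in YTD and 3.63 in OTD. In young mice 3 were counted as higher (Cbl, Foxo3 and Pik3r3) and 7 as lower in YAD than YTD. In old mice 3 were counted as higher (Foxo3, Pik3r2 and Pik3r3) and 6 as lower in OAD than OTD. Gys1, the glycogen synthase of muscle and fat, had an FPKM of 142 in YTD, 80.0 in OTD, 22.9 in YAD and 27.0 in OAD. Foxo4 had 65.3, 39.3, 16.9 and 17.4 in the same order, and Pde3b, the phosphodiesterase through which insulin restrains lipolysis, had 7.80, 11.6, 2.23 and 2.84. All 3 were thus lower in anagen. The opposite held for Foxo3, with 7.62 in YTD, 7.24 in OTD, 29.9 in YAD and 35.2 in OAD, and for Pik3r3, another regulatory subunit, with 4.79, 4.29, 15.9 and 21.0. Foxo3 was 3.93-fold higher in YAD than YTD, and Foxo1, at a ratio of 0.878 as deposited, had a log2 change of 0.60 in TPM. Igf1r, the receptor of the insulin-like growth factors, had 1.94 in YTD, 1.73 in OTD, 3.39 in YAD and 3.19 in OAD, and Insrr was under 0.1 in each library.

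Of 20 genes that dampen insulin signalling, in telogen OTD was above YTD for 14 and below it for 6. Among all genes with an FPKM of at least 1, 44.0% were higher in OTD. The median of the 20 was 0.10, and 1 was counted as changed. This was Socs3, a cytokine-induced brake that binds the receptor and IRS proteins, with an FPKM of 12.4 in YTD, 35.7 in OTD, 8.02 in YAD and 7.63 in OAD. It was 2.88-fold higher in OTD, a size near that of Irs2. In anagen 1 was counted as higher in OAD, Grb14, an adaptor that inhibits the receptor kinase, at 2.52 in YAD and 6.05 in OAD, a log2 change of 1.0. This lies at the threshold, and TPM, which multiplies OAD by 1.23 and YAD by 1.44, makes it smaller. With the hair cycle in young mice 4 were counted as higher (Enpp1, Ptpn1, Ptprf and Trib1) and 4 as lower (Grb10, Grb14, Inppl1 and Pik3ip1). In old mice 2 were counted as higher, Ptpn1 and Ptprf, and 7 as lower. Ptprf, a receptor phosphatase, had 4.82 in YTD and 63.9 in YAD, and 4.17 in OTD and 58.2 in OAD. Inppl1, the lipid phosphatase SHIP2, had 34.7 in YTD and 10.8 in YAD. Pik3ip1, an inhibitor of phosphoinositide 3-kinase, changed by -1.90 in young and -1.66 in old mice, and Grb10 by -1.53 and -1.39.

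Of 21 genes of GLUT4 vesicle traffic, none was counted as changed with age in either phase, with medians of -0.16 in telogen and -0.02 in anagen. With the hair cycle 2 were counted as higher (Aspscr1 and Myo5a) and 3 as lower (Rab10, Rhoq and Tbc1d4) in young mice, and 1 as higher (Myo5a) and 2 as lower (Rhoq and Tbc1d4) in old mice. Tbc1d4, the AKT substrate that holds GLUT4 vesicles back until it is phosphorylated, had an FPKM of 13.1 in YTD, 9.99 in OTD, 3.30 in YAD and 3.72 in OAD. Its relative Tbc1d1 had 7.90, 6.18, 3.97 and 3.94. The GTPases Rhoq, with 75.9, 41.4, 12.1 and 13.1, and Rab10, with 143, 89.0, 63.7 and 64.2, had the same order of phases. Each of these 4 was highest in YTD, but Tbc1d4, Rhoq and Rab10 were named for their large hair cycle changes. Over all 21 genes, 14 were lower and 7 higher in YAD than YTD, with a median of -0.32. Myo5a, a motor that also moves melanosomes, had 5.99, 7.42, 34.8 and 28.4, and Aspscr1 had 21.5, 19.5, 45.3 and 38.1. Both were higher in anagen, where melanocyte markers had medians of 4.51 in young and 3.96 in old mice. Hair shaft and matrix markers had 5.60 and 6.67 there, and keratinocyte markers 2.65 and 3.74. The part of these cells was not tested.

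Of 17 other transporter, hexokinase and related genes with a value above 0 in telogen, 12 were higher and 5 lower in OTD. Among all genes with an FPKM of at least 1, which 14 of the 17 reached, 44.0% were higher. The 12 include Slc2a7, at 0 in YTD and 0.0455 in OTD, and Slc5a1, at 0.0524 and 0.0839. The median of the 17 was 0.06, and 1 was counted as changed. This was Txnip, an arrestin-like protein that removes GLUT1 and GLUT4 from the cell surface, with an FPKM of 166 in YTD, 390 in OTD, 47.4 in YAD and 65.4 in OAD. It was 2.35-fold higher in OTD. Slc2a3, a high-affinity transporter of neurons and leukocytes, had 2.42 in YTD and 5.22 in OTD, and Hk3, a hexokinase of leukocytes, had 1.25 and 2.71, with neither counted as changed. Hk2, the hexokinase of insulin-sensitive tissue, went the other way, at 73.6 in YTD and 38.8 in OTD, a log2 change of -0.91. With the hair cycle 4 were counted as lower in young mice (among them Hk2, Slc2a12 and Txnip) and 8 in old mice, and none as higher. Slc2a12 changed by -1.56 in young and -1.24 in old mice, and Slc2a2 was listed at 0 in each library.

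Of 18 expressed genes known to be raised by FOXO factors in some tissue, 2 were counted as higher and none as lower in OTD, with a median of 0.06. They were Pck1, which makes glycerol precursors in fat, at 26.9 in YTD and 57.2 in OTD, and Pdk4, which blocks the entry of pyruvate into the citrate cycle, at 97.6 and 204. In anagen 15 of the 18 with an FPKM of at least 1 were higher in OAD and 3 lower, where 49.9% of all such genes were higher, and none was counted as changed. Pdk4 changed by 0.78. In TPM the median of all genes in this comparison moved to -0.21. With the hair cycle 10 were counted as lower in young mice, with a median of -1.34, and 10 as lower and 1, Sesn3, as higher in old mice, with a median of -1.02. Bnip3 changed by -2.98 in young and -2.59 in old mice, Trim63 by -2.79 and -2.09, Fbxo32 by -2.54 and -2.10, and Pink1 by -2.51 and -1.77. Pnpla2, the lipase that starts triglyceride breakdown, changed by -1.87 and -1.43. Trim63 and Fbxo32 are best known from striated muscle, whose markers had medians of -3.05 and -1.99, and their part was not tested. G6pc was at or under 0.0203 in each library.

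**Figure D5:**
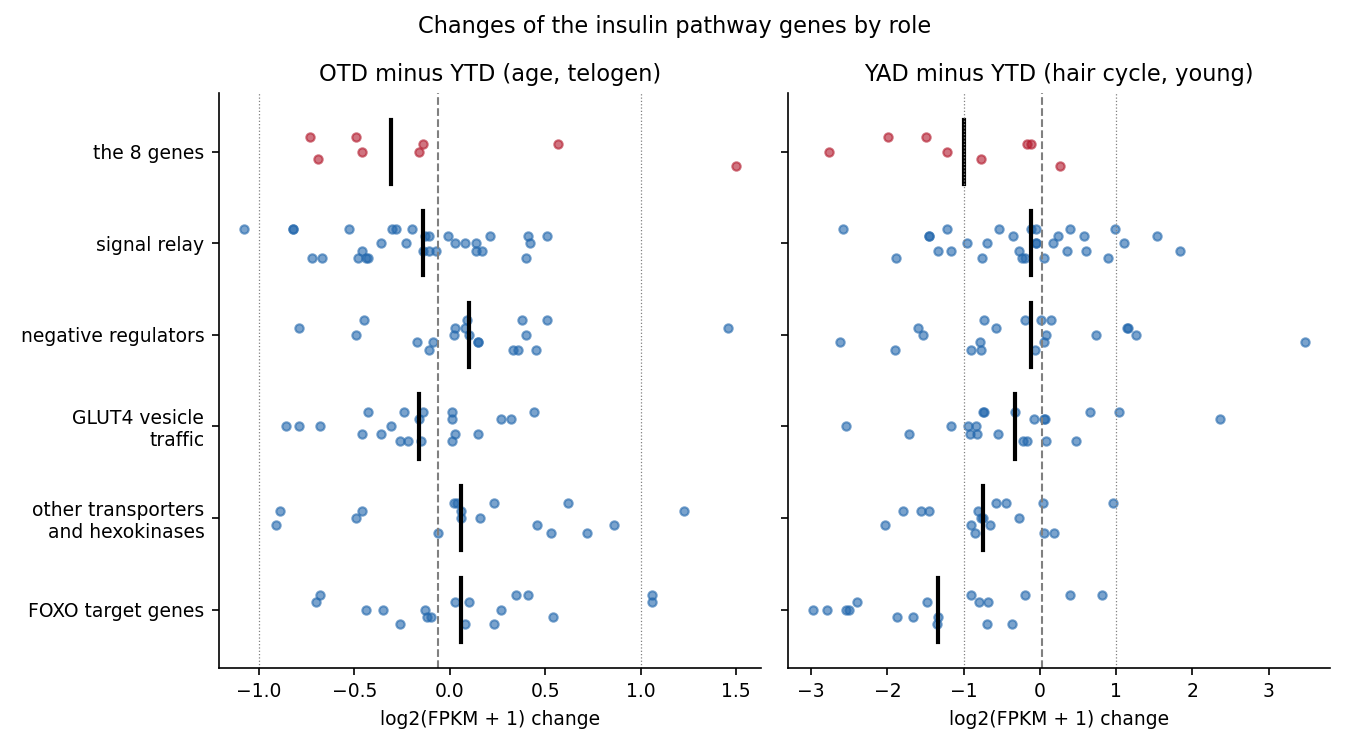
Change in log2(FPKM + 1) of each gene of the 8 and of 5 pathway lists, for age in telogen (left) and hair cycle in young mice (right), with black bars at list medians, a dashed line at the median of all genes with an FPKM of at least 1, and dotted lines at a size of 1. In telogen Irs2 at 1.5, Socs3 at 1.46 and Txnip at 1.23 stand to the right of their lists.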

How the data were processed

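RNA sequencing measured gene expression in dWAT in 4 libraries, 1 per group, and groups were taken from sample titles. The authors deposited FPKM for 22913 genes with coordinates on GRCm38. The submitters' processing notes name bcl2fastq and TopHat2, while the counter, annotation and strand setting are not given in the sources used here. Of the listed lengths, 97.0% are multiples of 3, so they were read as coding lengths. Identifiers of 21750 genes were matched to a symbol.

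Changes are differences of log2(FPKM + 1), counted when at least 1 in size, which understates changes of low genes. The depth estimate used listed lengths from 2000 to 4000 bp and is rough. It enters only the intervals and floors. The steps were tested on simulated data. Members and lists were chosen with earlier results of these data known. Genes named from the pathway lists are the first 2 of each list and up to 6 with the largest changes of at least 1 in any comparison. Some genes named by this rule are not reported here. The alternatives were a pseudocount of 0.1, a minimum FPKM of 1, a 1.5-fold threshold and 4 rescalings. Krt85 of the hair list was not analysed here. Protein sequences were not used here. Tools were numpy 2.4.6, scipy 1.17.1 and pandas 2.3.3 under Python 3.11.15, with figures from matplotlib 3.10.9.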

Additional observations from a re-analysis of the deposited data

Results flagged for a closer look

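For 3 of the genes the old and young libraries differed in opposite directions in telogen and in anagen, each beyond counting error. The log2 change was -0.73 in telogen and 0.20 in anagen for Akt2, -0.46 and 0.35 for Slc2a4, and -0.16 and 0.18 for Insr. For Irs2 the hair cycle change was 0.26 in young and -0.85 in old mice. These differences were not tested, since each group holds 1 library. Rescaling turned the sign of Insr in telogen (0.04 with an equal sum outside the mitochondrial genome), and that of Akt2 in anagen (-0.03 in TPM). The summed muscle markers moved the same way as Slc2a4 and Akt2, with ratios of old over young of 0.639 in telogen and 1.35 in anagen. So did keratinocyte markers, at 0.651 and 1.37, and hair shaft and matrix markers, at 0.577 and 1.31. Adipocyte markers, at 1.23 and 1.43, and endothelial markers, at 1.53 and 1.31, were higher in the old library in both phases. The part of these tissues was not tested.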

How the results depend on the processing

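The median change of the 8 genes and the count of genes changed were recomputed under each alternative. In TPM the median was -0.08 for age in anagen, -0.33 for the hair cycle in young and -0.32 in old mice, and 2 genes were counted as changed in young and 1 in old mice. With an equal sum outside the mitochondrial genome the median for age in telogen was -0.10, and 4 genes were counted for the hair cycle in old mice. A pseudocount of 0.1 gave a median of -1.20 for the hair cycle in young mice, with 5 genes counted there and 4 in old mice. At a 1.5-fold threshold 3 genes were counted for age in telogen, 5 for the hair cycle in young mice and 6 in old mice. Of 32 changes of single genes, the sign turned or fell to 0 for 7 in TPM, 5 with an equal sum outside the mitochondrial genome, 4 with an equal sum that also left out muscle, hair shaft and keratin-associated protein genes, and 0 with the median of ratios over 15507 genes. No member was lost at a minimum FPKM of 1. TPM moved the median of all genes with an FPKM of at least 1 to -0.21 for age in anagen, and an equal sum outside the mitochondrial genome moved it to 0.13, -0.15, 0.23 and -0.11 for age in telogen, age in anagen, and the hair cycle in young and in old mice. The log2 change of Irs2 with age in telogen ran from 1.44 to 1.68 under the rescalings. No paired analysis was possible because each group holds 1 library, and leaving out a replicate was not possible for the same reason.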
